A study of Mus musculus with 30 samples.

Results

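The V1 sector of the vacuolar ATPase is described here by the 9 V1 subunit genes of the deposited table, chosen by symbol: Atp6v1a, Atp6v1b2, Atp6v1c1, Atp6v1d, Atp6v1e1, Atp6v1f, Atp6v1g1, Atp6v1g2 and Atp6v1h. They are 9 of 17420 genes, and each passed the filter on low values in both tissues. PolyA RNA of quadriceps muscle and whole spinal cord was sequenced from 15 male mice aged 4 months, with both tissues taken from each animal, giving 30 libraries in 10 groups of 3. A pair of groups was on the B6;129 background, one with intact Gaa (wild type, WT) and one knocked out for it (KO). The others were WT, KO and treated KO mice on the B6;129;DBA2/J background, all 3 of which carry the Ltbp4D36/D36 genotype. Treated KO mice had received an AAV9 vector for secreted human GAA through the temporal vein as newborns, driven by a promoter that is active in liver and muscle (LiMP). The other groups are labelled untreated. The product of Gaa, acid alpha-glucosidase, breaks down glycogen within lysosomes, and its loss causes Pompe disease.

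The vacuolar ATPase is a rotary proton pump that acidifies lysosomes, endosomes and synaptic vesicles. Its V1 sector lies in the cytosol and hydrolyses ATP, and its V0 sector lies in the membrane and conducts protons. Subunits A and B alternate in the hydrolysing ring, D and F form the central rotor, E and G the peripheral stalks, and C and H join and regulate the sectors. On lysosomes the pump also binds Ragulator, the complex that brings the growth kinase mTORC1 to the membrane, and the factor TFEB is known to activate many genes of the pump through motifs with the core CACGTG.

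Depth was 16.9 to 37.1 M reads a library for quadriceps and 19.2 to 34.2 M for cord. The deposited value is a linear normalized count, called signal here, in which a single read counts for 0.0329 to 0.072 (quadriceps) or 0.0179 to 0.0369 (cord). Mouse Gaa was 169 to 308 in WT quadriceps against 11.6 to 18.9 in all 9 KO quadriceps, treated ones included, and 131 to 236 against 8.09 to 17.7 in cord. The summed signal of 11 muscle fibre markers ran between 153486 and 276643 in muscle, against 120 to 1908 in cord, and that of 11 neuron markers was 4513 to 7448 in cord and 6.38 to 21.1 in quadriceps, where 6 of them (Rbfox3, Syt1, Syn1, Slc17a6, Gad1 and Chat) stayed below 1 in every library. Quadriceps of WT mouse 4 of the mixed background stood apart: the stress genes Atf3, Ankrd1 and Hspa1a were at 372, 228 and 305 there, against 8.25 to 33.6, 7.32 to 96.6 and 4.89 to 205 in the other 14 quadriceps libraries. These genes were chosen after their values were seen. For Atp6v1a, Atp6v1b2 and Atp6v1h, differences of KO and treated KO from WT quadriceps of this background are given with and without this library. Other results include it unless single libraries were left out. Column names place B6;129 samples in a series A and samples of the mixed background in a series B, and the effects of background and of series cannot be told apart, while every KO, WT and treatment comparison lies within 1 series.

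RefSeq start regions (GRCm38.p6, 250 bases before to 50 after the start site) were found for 5 of the 9 genes, and those of the catalytic subunit and both rotor subunits are shown because these 3 genes were called in every quadriceps comparison of KO with WT and of treated with untreated mice. Only bases outside annotated exons are printed. Those of Atp6v1a lie before the RefSeq start but within the span of the gene in the GENCODE vM21 annotation. Capitals in the Atp6v1a sequence mark CACGTG, which was searched on both strands.
Atp6v1a, chr16:44139306-44139461, minus strand, bases -202 to -47 from the start: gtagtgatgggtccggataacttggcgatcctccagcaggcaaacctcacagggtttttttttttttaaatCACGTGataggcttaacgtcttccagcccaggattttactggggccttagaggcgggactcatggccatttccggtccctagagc
Atp6v1d, chr12:78861639-78861818, minus strand, bases -180 to -1: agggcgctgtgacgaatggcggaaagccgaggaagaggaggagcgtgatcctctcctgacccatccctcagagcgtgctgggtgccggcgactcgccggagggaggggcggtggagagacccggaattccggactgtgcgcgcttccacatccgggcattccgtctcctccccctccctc
Atp6v1f, chr6:29467533-29467717, plus strand, bases -250 to -66: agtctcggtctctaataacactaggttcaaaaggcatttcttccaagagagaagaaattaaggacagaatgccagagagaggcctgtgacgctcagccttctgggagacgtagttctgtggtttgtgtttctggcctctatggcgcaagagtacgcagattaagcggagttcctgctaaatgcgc

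The CACGTG of Atp6v1a begins at base -131 and is part of the longer match TCACGTGA, which begins at -132. CACGTG occurred in the start regions of 8.09% of 27025 genes and TCACGTGA in 1.12%. Neither occurred in the windows of Atp6v1d, Atp6v1e1, Atp6v1f or Atp6v1g2. GGGCGG occurred in the windows of Atp6v1d, Atp6v1e1, Atp6v1f and Atp6v1g2 and in 38.2% of all genes. Atp6v1b2, Atp6v1c1, Atp6v1g1 and Atp6v1h are named only. In the GENCODE vM21 annotation of GRCm38, Atp6v1a spans chr16:44085402-44139705 (minus strand), Atp6v1d chr12:78840725-78861638 (minus), Atp6v1f chr6:29467718-29470512 (plus), Atp6v1g1 chr4:63544772-63550750 (plus) and Atp6v1h chr1:5070018-5162529 (plus).

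In WT mice on B6;129 the V1 subunit genes differed in level between muscle and cord by very unequal amounts. Per kilobase of merged exons, the mean signal in quadriceps was highest for Atp6v1g1, a peripheral stalk subunit, at 268 ± 7.28 (SD, n = 3). Atp6v1f followed at 52 ± 3.5, Atp6v1e1 at 32.4 ± 1.07, Atp6v1d at 20.2 ± 1.16 and Atp6v1b2 at 15 ± 0.7. Atp6v1c1 (7.06 ± 0.195), Atp6v1a (4.35 ± 0.147), Atp6v1h (2.07 ± 0.0877) and Atp6v1g2 (1.03 ± 0.255) came last. In cord the order per kilobase was another: Atp6v1b2 led at 77.6 ± 2.69 and Atp6v1g2, the stalk isoform enriched in neurons, came next at 68.1 ± 2.21. The middle of the cord order held Atp6v1g1 at 57.3 ± 1.73, Atp6v1f at 52.2 ± 3.3 and Atp6v1a at 45.4 ± 1.81. Atp6v1e1 (38.9 ± 1.09), Atp6v1d (23.5 ± 0.146), Atp6v1c1 (22.8 ± 0.161) and Atp6v1h (9.64 ± 0.152) were lowest. Neighbours in both orders differed by more than the SD of either gene. In a bulk sample, fewer cells of a type and less RNA per cell cannot be told apart, so these levels are those of whole tissue.

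**Figure D1:**
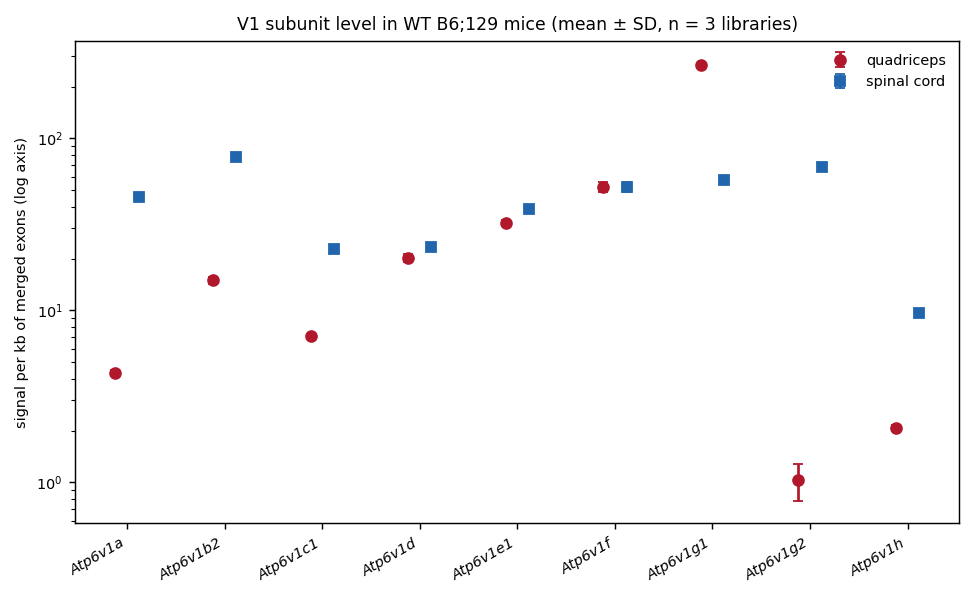
Level of each V1 subunit gene in WT mice on B6;129, as signal per kilobase of merged exons on a log axis (mean ± SD, n = 3 libraries; most error bars are smaller than the marker). Atp6v1g1 stands above and Atp6v1g2 far below its cord level in quadriceps, while the means of Atp6v1f are 52 and 52.2.

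Gene by gene, 7 of the 9 V1 genes were lower in WT quadriceps than in WT cord and 1 was higher (limma over 30 libraries, Benjamini-Hochberg adjustment), where 36.4% of 13187 genes were called lower and 44.9% higher. The log2 differences were -5.82 ± 0.14 (SE) for Atp6v1g2, -3.36 ± 0.09 for Atp6v1a, -2.36 ± 0.11 for Atp6v1b2, -2.20 ± 0.10 for Atp6v1h and -1.68 ± 0.06 for Atp6v1c1, and the lowest adjusted p was 6.98e-22. Atp6v1e1 was at -0.26 ± 0.05 and Atp6v1d at -0.22 ± 0.05, and after quantile normalization at -1.03 and -0.83. Atp6v1g1 was 4.66-fold higher (2.22 ± 0.12, adjusted p = 5.97e-15). The rotor subunit Atp6v1f was not called (-0.00 ± 0.06, 95% interval -0.14 to 0.13, adjusted p = 0.952). It was called lower in quadriceps after quantile normalization (-0.35, adjusted p = 5.44e-06), with edgeR (-0.17, adjusted p = 0.0182) and with DESeq2 (-0.16, adjusted p = 0.0325), and centred by exon length, an adjustment chosen after seeing the data, it was at -0.80. Over all genes the median difference was 0.14 and by exon length 0.41 among the genes with the shortest exons and -0.09 among those with the longest (genes split by length into 3 equal classes). Atp6v1g2 made up 0.381% ± 0.0842 of the summed G1 and G2 signal per kilobase in WT quadriceps and 54.3% ± 0.496 in WT cord on B6;129 (n = 3 each).

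In KO quadriceps most V1 genes rose above WT, and most fell with treatment. On B6;129, 5 of 9 were higher and 0 lower (median log2 difference 0.26, against -0.02 over all 14113 genes), where 16.7% of all genes were called higher, and the libraries did not overlap for 6 members and 24.9% of genes. On the mixed background 7 of 9 were higher and 0 lower (median 0.45 against -0.04), where 17.1% of genes were called higher, and 7 members and 20.6% of genes did not overlap. Treated KO mice had 7 of 9 lower and 0 higher than untreated KO mice (median -0.43 against 0.05), where 17.1% of genes were called lower, and 8 members and 21.6% of genes did not overlap. Treated KO and WT mice of the mixed background differed at 0 of 9 by limma (lowest adjusted p = 0.279), by edgeR and by DESeq2, where 2.98% of genes were called and 3105 had an unadjusted p under 0.05. The comparisons of KO with WT and of treated with untreated mice share the 3 untreated KO libraries of the mixed background. The summed V1 signal was 748 to 764 in WT and 801 to 877 in KO on B6;129, and 654 to 718, 867 to 930 and 636 to 659 in WT, KO and treated KO on the mixed background. In the order of the group means both KO groups came first for 7 genes and not for Atp6v1b2 and Atp6v1g1.

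Cell type markers moved in the same comparisons. The 15 macrophage and microglia markers summed to 72.4 to 97.8 in WT and 358 to 474 in KO quadriceps on B6;129, and to 121 to 181 in WT, 300 to 586 in KO and 87.3 to 213 in treated KO quadriceps on the mixed background. Of 14 tested, 14 and 13 were higher in KO and 13 lower with treatment. The muscle fibre markers summed to 210163 to 226749 in WT and 164628 to 178645 in KO on B6;129, and to 215686 to 247718, 153486 to 180159 and 257661 to 276643 in WT, KO and treated KO on the mixed background. Of these 11, 4 and 5 were called lower in KO and 0 higher, and 5 were higher and 0 lower with treatment. The 5 endothelial markers summed to 302 to 372 and 186 to 202 on B6;129, and to 251 to 284, 141 to 196 and 281 to 406 on the mixed background. Of these, 5 and 4 were lower in KO and 5 higher with treatment. No marker of these 3 lists was below 1 in every quadriceps library. Their part in the V1 differences was not tested.

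**Figure D2:**
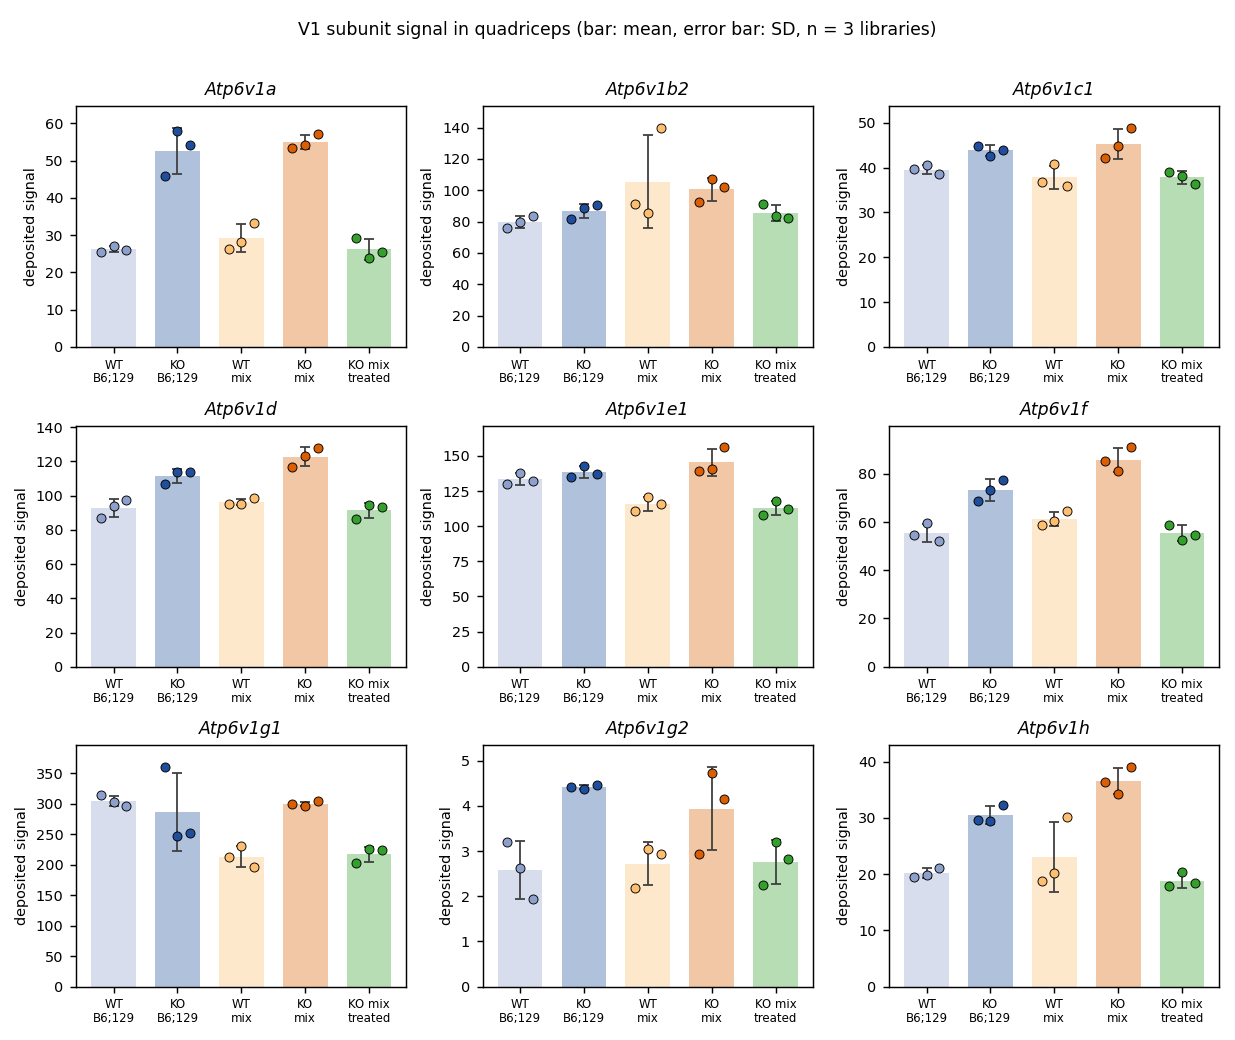
Signal of the 9 V1 subunit genes in the 15 quadriceps libraries, each point 1 library, bars the group mean and error bars the SD (n = 3), each axis from 0. KO libraries of Atp6v1a lie at 45.9 to 57.9 and WT and treated libraries at 23.8 to 33.3; Atp6v1b2 and Atp6v1h are high in WT mouse 4 of the mixed background.

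Atp6v1a, the catalytic A subunit that binds and hydrolyses ATP, changed most. On B6;129 its signal was 25.5, 27.2 and 26.1 in WT and 45.9, 57.9 and 54.3 in KO quadriceps. On the mixed background it was 26.2, 28.2 and 33.3 in WT, 53.5, 54.2 and 57.2 in KO, and 29.2, 23.8 and 25.6 in treated KO libraries. Every KO library was above every WT and treated library on both backgrounds. KO exceeded WT 1.98-fold on B6;129 (log2 difference 0.98 ± 0.11, limma, adjusted p = 1.57e-05) and 1.88-fold on the mixed background (0.91 ± 0.11, adjusted p = 2.57e-05). Without WT mouse 4 the latter difference was 1.00. Treated KO mice were at 0.48 of the untreated level (-1.06 ± 0.11, adjusted p = 5.49e-06) and at 0.9 of the WT level (-0.15 ± 0.11, 95% interval -0.38 to 0.08, adjusted p = 0.431), or at -0.06 on the log2 scale without WT mouse 4. Leaving out single libraries gave 0.91 to 1.08, 0.83 to 1.00 and -1.14 to -0.99 for the 3 called differences.

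Atp6v1b2, the B subunit that forms the ring with A and binds nucleotide without the main catalytic role, was not called in these comparisons. Its signal was 75.9, 79.7 and 83.3 in WT and 81.9, 88.5 and 90.6 in KO libraries of B6;129. The mixed background gave 91, 85.8 and 140 in WT, 92.6, 107 and 102 in KO, and 91.4, 83.4 and 82.2 in treated KO libraries. WT mouse 4, at 140, was above all other quadriceps libraries, and untreated KO libraries of the mixed background were all above the treated ones. The differences were 0.13 ± 0.14 for KO on B6;129 (adjusted p = 0.514), -0.04 ± 0.14 for KO on the mixed background (95% interval -0.34 to 0.26) and -0.23 ± 0.14 with treatment (adjusted p = 0.212). After quantile normalization the last was called (-0.34, adjusted p = 0.039). Without WT mouse 4 the difference for KO on the mixed background was 0.18, and it was still not called. Treated KO and WT mice differed by -0.27 ± 0.14 (adjusted p = 0.279), or by -0.05 without that library. The intervals of KO against WT for Atp6v1a, 0.76 to 1.21 and 0.68 to 1.14, lie above those for Atp6v1b2, -0.17 to 0.43 and -0.34 to 0.26, on B6;129 and the mixed background.

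Both rotor genes rose in KO quadriceps and fell with treatment. Atp6v1f stood at 54.5, 59.4 and 52.1 in WT and 68.7, 73.3 and 77.6 in KO libraries on B6;129. Libraries of the mixed background held 58.9, 60.5 and 64.4 in WT, 85.3, 81.1 and 90.9 in KO, and 58.9, 52.7 and 54.7 in treated KO libraries. No KO library overlapped a WT or treated one on either background. The log2 differences of Atp6v1f were 0.40 ± 0.07 (adjusted p = 0.001) and 0.48 ± 0.07 (adjusted p = 0.000233) for KO and -0.62 ± 0.07 (adjusted p = 2.3e-05) with treatment.

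Atp6v1d was 87, 93.8 and 97.6 in WT and 107, 114 and 114 in KO libraries on B6;129. The mixed background held 95.3, 95.3 and 98.5 in WT, 117, 123 and 128 in KO, and 86.5, 94.4 and 93.6 in treated KO libraries. KO libraries lay above all others, and all treated libraries were below all WT libraries of their background by a margin that was not called (-0.08 ± 0.06, adjusted p = 0.517). In KO, Atp6v1d rose by 0.26 ± 0.06 (adjusted p = 0.00515) and 0.35 ± 0.06 (adjusted p = 0.000789), and it fell by 0.42 ± 0.06 with treatment (adjusted p = 0.000141).

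Among the regulatory subunits, Atp6v1h, which in yeast holds the free V1 sector from hydrolysing ATP, rose in KO on both backgrounds and fell with treatment. Its signal was 19.4, 19.9 and 21.1 in WT and 29.7, 29.5 and 32.3 in KO libraries on B6;129. The mixed background gave 18.8, 20.2 and 30.1 in WT, 36.4, 34.3 and 39 in KO, and 17.8, 20.3 and 18.4 in treated KO libraries. WT mouse 4, at 30.1, was the one WT library within the range of the B6;129 KO libraries, and was below all KO libraries of its own background. In KO it rose by 0.59 ± 0.14 (adjusted p = 0.00446) and 0.68 ± 0.14 (adjusted p = 0.00147), the latter 0.89 without that library, and with treatment it fell by 0.94 ± 0.14 (adjusted p = 0.000108). Treated KO and WT mice differed by -0.26 ± 0.14 (adjusted p = 0.29), or by -0.05 without WT mouse 4. Rgs20 shares 127 of the 9746 exon bases of Atp6v1h on the opposite strand and was at most 0.329 in any quadriceps library.

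Atp6v1c1, the C subunit that leaves the pump when V1 and V0 come apart, changed little. It was 39.6, 40.6 and 38.5 in WT and 44.9, 42.6 and 44 in KO libraries on B6;129. The mixed background held 36.8, 40.8 and 35.9 in WT, 42.2, 44.7 and 48.9 in KO, and 39.1, 38.1 and 36.3 in treated KO libraries. KO libraries were above WT on both backgrounds and above treated ones, by differences of at most 1.19-fold. These were 0.15 ± 0.07 on B6;129 (adjusted p = 0.132), 0.26 ± 0.07 on the mixed background (adjusted p = 0.0129) and -0.26 ± 0.07 with treatment (adjusted p = 0.012). Without KO mouse 8 of the mixed background neither was called (0.20 and -0.20, adjusted p = 0.0569 and 0.0544), nor with only the compared groups in the fit (adjusted p = 0.0889 and 0.0521).

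Of the stalk genes, Atp6v1e1 was 130, 138 and 132 in WT and 135, 143 and 137 in KO libraries on B6;129, overlapping, with a difference of 0.05 ± 0.06 (adjusted p = 0.556). Libraries of the mixed background held 111, 121 and 116 in WT, 139, 141 and 156 in KO, and 108, 118 and 112 in treated KO libraries. There KO libraries stood above all WT and treated ones, and the differences were 0.32 ± 0.06 (adjusted p = 0.00135) and -0.36 ± 0.06 (adjusted p = 0.000437). The difference between the KO effects of the backgrounds was 0.27 ± 0.09 and was not called (adjusted p = 0.266).

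Atp6v1g1 differed between backgrounds among WT mice. It was 314, 303 and 297 in WT and 360, 247 and 252 in KO libraries on B6;129, and KO mouse 1, at 360, was above all WT libraries while the other KO libraries were below them. On the mixed background it was 213, 230 and 196 in WT, 299, 296 and 304 in KO, and 203, 225 and 224 in treated KO libraries. KO differed from WT by -0.11 ± 0.11 on B6;129 (adjusted p = 0.49) and rose by 0.49 ± 0.11 on the mixed background (adjusted p = 0.00411), and it fell by 0.46 ± 0.11 with treatment (adjusted p = 0.00557). Without KO mouse 1 of B6;129 the difference there was -0.29 and was called lower (adjusted p = 0.0115). The difference of the KO effects was 0.60 ± 0.16 (adjusted p = 0.153), and 0.78 without that mouse (adjusted p = 0.0046).

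Atp6v1g2 was low in muscle, with 33 to 135 reads a library. Its signal was 3.21, 2.62 and 1.93 in WT and 4.43, 4.38 and 4.46 in KO libraries on B6;129, which did not overlap. The mixed background held 2.18, 3.05 and 2.94 in WT, 2.94, 4.73 and 4.16 in KO, and 2.25, 3.21 and 2.82 in treated KO libraries, which overlapped. The KO differences were 0.69 ± 0.20 (adjusted p = 0.0154) and 0.45 ± 0.20 (adjusted p = 0.0895), and treatment gave -0.43 ± 0.20 (adjusted p = 0.101). The first was not called without WT mouse 6 of B6;129 (0.53, adjusted p = 0.0736), and the others were called without KO mouse 6 of the mixed background (0.63 and -0.61, adjusted p = 0.0355 and 0.0364). Nfkbil1 shares 144 of its 2510 exon bases on the opposite strand and was at 4.29 to 7.7 in quadriceps, and whether counting used strand is not given in the sources used here. The summed neuron markers in quadriceps were 7.37 to 9.65 in WT and 11.8 to 15.4 in KO libraries of B6;129, and 6.38 to 9.34, 7.55 to 21.1 and 7.27 to 11.4 in WT, KO and treated KO libraries of the mixed background. Of 4 neuron markers tested, 0 were called higher and 1 lower in KO on B6;129, and 1 higher and 1 lower on the mixed background. With treatment 0 were called higher and 0 lower. The part of the neuron markers in the Atp6v1g2 difference was not tested. As a share of the summed G1 and G2 signal per kilobase, Atp6v1g2 was 0.713% ± 0.139 in KO on B6;129, and 0.576% ± 0.108, 0.592% ± 0.139 and 0.568% ± 0.0716 in WT, KO and treated KO on the mixed background (SD, n = 3 each), so Atp6v1g1 made up nearly all G signal in muscle throughout.

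A direct test of whether the KO effect in quadriceps depended on background called 0 of the 9 genes by limma, by edgeR and by DESeq2 (lowest adjusted p = 0.153), where 0.283% of genes were called and 1537 had an unadjusted p under 0.05. For Atp6v1a the difference of effects was -0.08 ± 0.15, with a 95% interval of -0.40 to 0.25. Between WT quadriceps of the backgrounds 1 of 9 genes, Atp6v1g1, was called lower on the mixed background (-0.52 ± 0.11, adjusted p = 0.0298), where 1.18% of genes were called lower. That call was lost without any 1 of 5 of the 6 libraries (adjusted p = 0.0752 to 0.109), WT mouse 3 of the mixed background being the exception, and with edgeR (adjusted p = 0.0533). After quantile normalization Atp6v1e1 was called lower as well (-0.24, adjusted p = 0.0448).

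**Figure D3:**
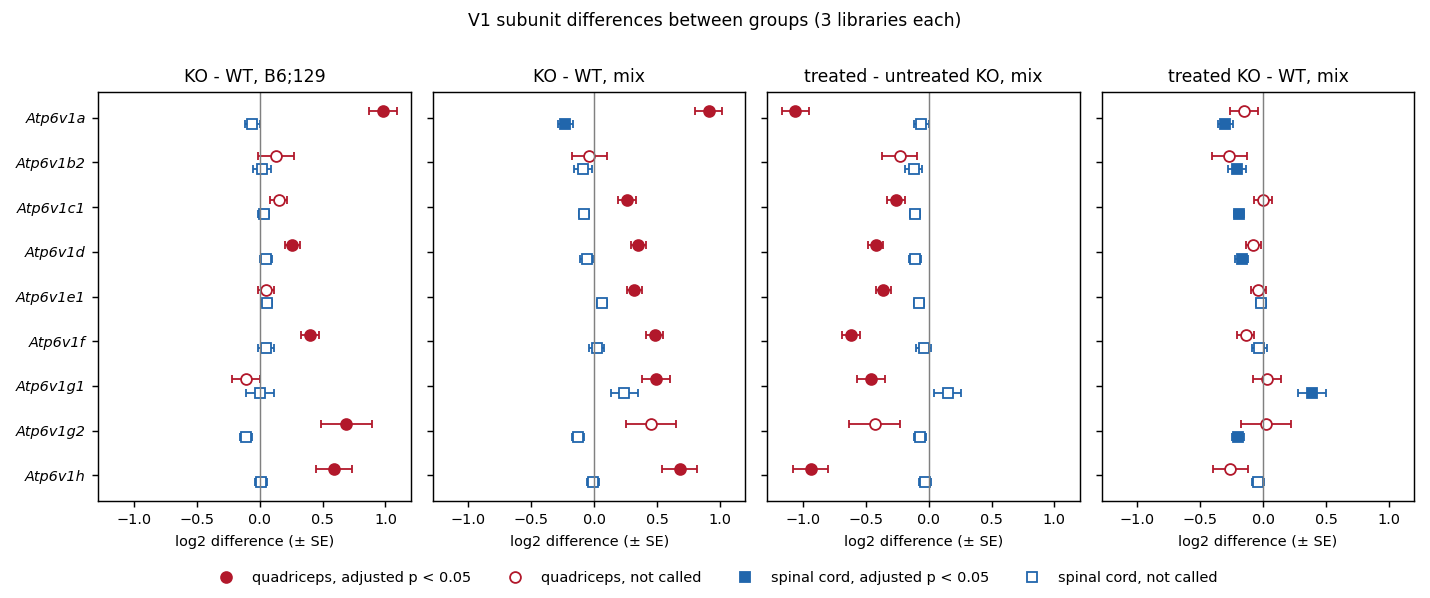
Log2 differences of the 9 V1 subunit genes in 4 comparisons, quadriceps as circles and cord as squares, filled where the adjusted p was under 0.05, with SE as error bars. In quadriceps Atp6v1a lies at 0.98 and 0.91 for KO and -1.06 with treatment, and in cord at -0.06, -0.23 and -0.06.

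In spinal cord the V1 genes differed little between KO and WT mice. On B6;129, 0 of 9 were called by limma, by edgeR and by DESeq2 (lowest adjusted p = 0.474), where 1.16% of genes were called and 1733 had an unadjusted p under 0.05. On the mixed background 1 of 9, Atp6v1a, was called lower, where 5.85% of genes were called lower. Cord Atp6v1a was 268, 287 and 269 in WT and 261, 252 and 275 in KO libraries on B6;129. The mixed background gave 247, 262 and 270 in WT, 222, 207 and 233 in KO, and 226, 209 and 199 in treated KO libraries. Groups overlapped on B6;129, and on the mixed background both KO groups lay below WT. The KO differences were -0.06 ± 0.06 (adjusted p = 0.764) and -0.23 ± 0.06 (adjusted p = 0.0194). The second was not called without KO mouse 7 (adjusted p = 0.062), without WT mouse 4 (adjusted p = 0.0781), with only the compared groups in the fit (adjusted p = 0.0754) or after quantile normalization (-0.16, adjusted p = 0.114). The difference between those 2 KO effects was -0.17 ± 0.08 (adjusted p = 0.447), and for KO effects in cord 0 of 9 genes were called by limma, by edgeR and by DESeq2, where 0.524% of genes were called and 1860 had an unadjusted p under 0.05.

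Of the other V1 genes in cord, Atp6v1b2 was 421, 419 and 395 in WT and 402, 400 and 450 in KO libraries on B6;129. The mixed background held 427, 400 and 450 in WT, 384, 392 and 427 in KO, and 395, 371 and 342 in treated KO libraries. WT and KO overlapped on both backgrounds, while treated libraries were all below WT. Atp6v1c1 was 127, 127 and 129 in WT and 127, 127 and 137 in KO on B6;129, and 137, 135 and 148 in WT, 130, 133 and 133 in KO and 123, 125 and 118 in treated KO on the mixed background. There its 3 groups were stacked without overlap, in the order WT, KO, treated KO, with differences of -0.08 ± 0.04 for KO (adjusted p = 0.255) and -0.11 ± 0.04 with treatment (adjusted p = 0.373).

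Atp6v1g2, far more abundant in cord than in muscle, was 167, 168 and 177 in WT and 155, 161 and 160 in KO libraries on B6;129. The mixed background held 269, 255 and 286 in WT, 241, 259 and 242 in KO, and 248, 234 and 224 in treated KO libraries. KO lay below WT without overlap on B6;129 and overlapped it on the mixed background, and the KO differences were -0.11 ± 0.05 (adjusted p = 0.474) and -0.13 ± 0.05 (adjusted p = 0.121). Its share of the summed G1 and G2 signal per kilobase was 52.3% ± 3.46 in KO on B6;129, and 47% ± 4.54, 40.7% ± 2.66 and 37.1% ± 2.13 in WT, KO and treated KO on the mixed background. Atp6v1g1 was 62.9 to 66.7 in WT and 60.2 to 74.8 in KO on B6;129, and 121 to 155 in WT, 145 to 193 in KO and 175 to 189 in treated KO on the mixed background, where WT and KO, and KO and treated KO, overlapped. Atp6v1e1 went from 155 to 172 over the 6 libraries of B6;129 and from 238 to 263 over the 9 of the mixed background, Atp6v1d from 107 to 117 and 148 to 178, and Atp6v1h from 90.2 to 99.5 and 102 to 115. For these 3 genes every library of the mixed background was above every B6;129 library, and KO and WT differed by at most 0.06 on the log2 scale, with no call. After quantile normalization Atp6v1e1 was called higher in KO on the mixed background (0.13, adjusted p = 0.0292).

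Between treated and untreated KO cord 0 of the 9 V1 genes were called by limma, by edgeR and by DESeq2 (lowest adjusted p = 0.373). There limma called 0% of 15838 genes, with 1697 at an unadjusted p under 0.05, while edgeR called 2 genes and DESeq2 155. The 95% intervals, which are not adjusted for the number of genes, were -0.19 to 0.06 for Atp6v1a, -0.26 to 0.02 for Atp6v1b2 and -0.14 to 0.07 for Atp6v1h. Those of Atp6v1c1 (-0.21 to -0.02) and Atp6v1d (-0.21 to -0.01) lay below 0. Of the 9 differences 1, that of Atp6v1g1, was positive. Between treated KO and WT cord 6 of 9 genes were called, 5 lower and 1 higher, where 7.95% of genes were called lower and 8.81% higher. Atp6v1a (-0.30 ± 0.06, adjusted p = 0.00453), Atp6v1b2 (-0.21 ± 0.07, adjusted p = 0.0476), Atp6v1c1 (-0.19 ± 0.04, adjusted p = 0.0102), Atp6v1d (-0.17 ± 0.05, adjusted p = 0.0233) and Atp6v1g2 (-0.20 ± 0.05, adjusted p = 0.0183) were lower. Atp6v1g1 was higher, at 175, 177 and 189 in treated KO against 139, 155 and 121 in WT libraries (0.39 ± 0.11, adjusted p = 0.0246), and the groups did not overlap. Only 2 of the 9 genes, Atp6v1a and Atp6v1c1, were called when treated mouse 22, treated mouse 24 or WT mouse 4 was left out, 3 after quantile normalization, and 1 with only the compared groups in the fit. On the mixed background the neuron markers summed to 6294 to 7448 in WT, 6069 to 6515 in KO and 5943 to 6163 in treated KO cord, and their part in these differences was not tested.

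**Figure D4:**
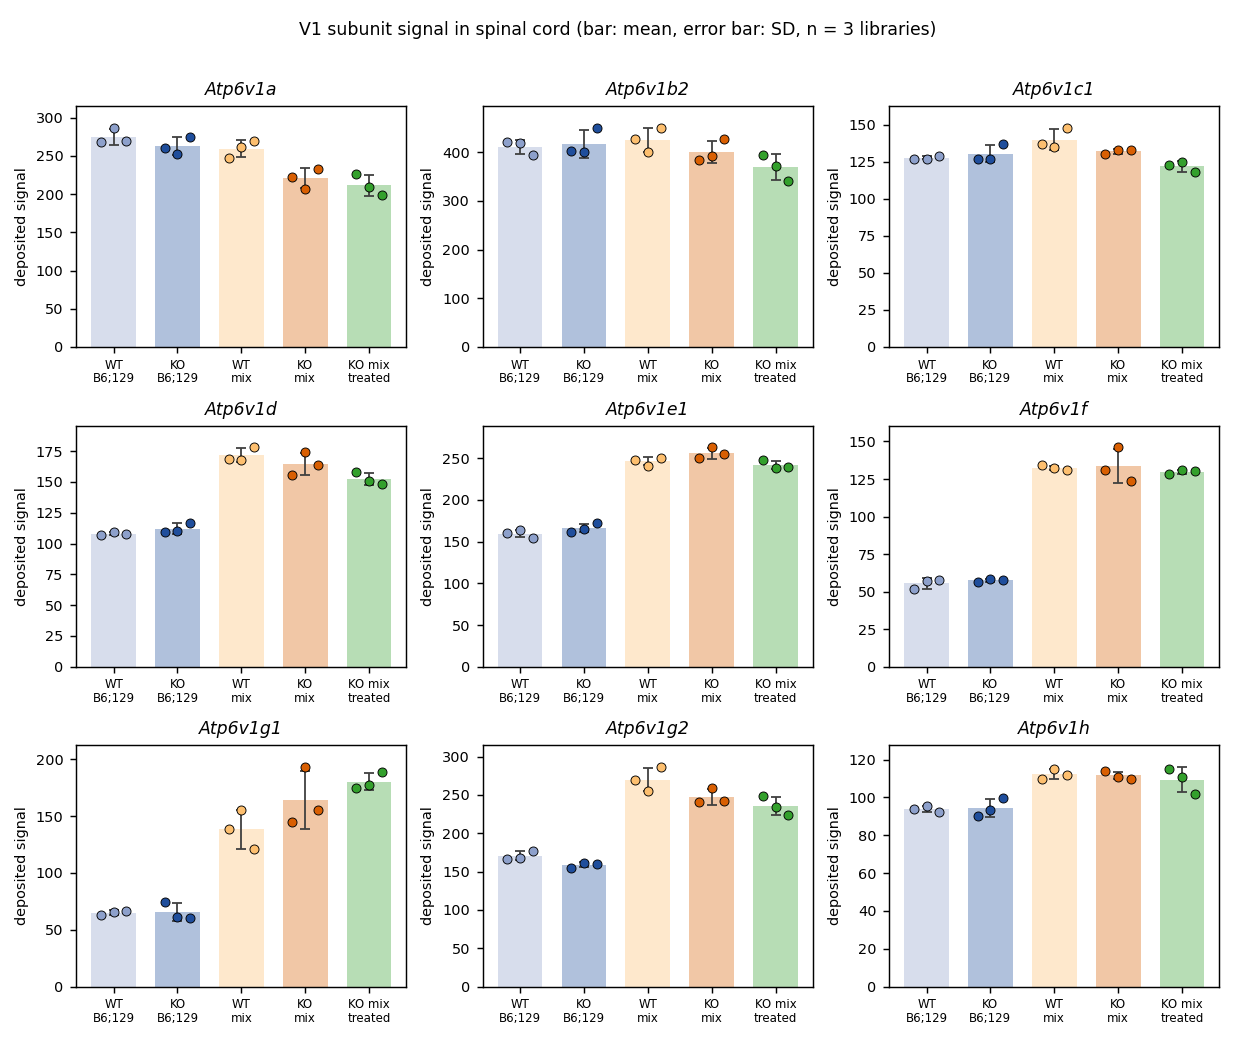
Signal of the 9 V1 subunit genes in the 15 spinal cord libraries, each point 1 library, bars the group mean and error bars the SD (n = 3), each axis from 0. Atp6v1f lies at 51.5 to 58.5 in B6;129 libraries and at 124 to 146 in libraries of the mixed background, whatever the genotype.

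The widest separation of V1 genes in cord was between the backgrounds. Among WT mice 7 of 9 were higher on the mixed background and 0 lower, where 32.3% of genes were called higher. Atp6v1f went from 51.5, 57 and 58 to 134, 132 and 131 (log2 difference 1.25 ± 0.06, adjusted p = 2.76e-10). Atp6v1g1 went from 62.9, 65.5 and 66.7 to 139, 155 and 121 (1.08 ± 0.11, adjusted p = 5.28e-07). For both genes every library of the mixed background was above every B6;129 library.

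The largest of these differences were those of the genes with the shortest exon sets. Atp6v1f and Atp6v1g1 have the shortest exon sets, 1.06 and 1.14 kb, followed by Atp6v1g2 with 2.51 kb (0.66 ± 0.05), Atp6v1e1 with 4.11 kb (0.62 ± 0.04) and Atp6v1d with 4.6 kb (0.66 ± 0.05). The longer Atp6v1b2 (5.3 kb, 0.05 ± 0.07), Atp6v1c1 (5.6 kb, 0.13 ± 0.04, not called without WT mouse 4 of the mixed background, adjusted p = 0.0907), Atp6v1a (6.04 kb, -0.08 ± 0.06) and Atp6v1h (9.75 kb, 0.26 ± 0.05) differed less. Over all genes the median difference was 0.43 in the shortest of 3 length classes, -0.03 in the middle and -0.37 in the longest. Between WT quadriceps these medians were 0.03, -0.01 and -0.04. In cord Atp6v1e1 and Atp6v1d lie in the middle class, as do Atp6v1b2 and Atp6v1c1. Centred by exon length, 9 of 9 genes were called higher, among them Atp6v1f at 0.42, Atp6v1g1 at 0.25, Atp6v1h at 0.77 and Atp6v1a at 0.16 (adjusted p = 0.0185). After quantile normalization 5 of 9 were called higher and 3 lower, Atp6v1a (-0.39), Atp6v1b2 (-0.21) and Atp6v1c1 (-0.14), and Atp6v1h was not called (0.05, adjusted p = 0.452). The share of all genes called higher or lower is not given for either adjustment, so these counts have no background beside them. In the main limma fit 69.4% of genes had an unadjusted p under 0.05 between WT cords. The mitochondrial share of cord reads was 6.99% to 7.37% in WT B6;129 and 13.2% to 17% in WT mixed libraries. The 6 oligodendrocyte markers summed to 15022 to 15947 and 25239 to 34424, with 5 called higher on the mixed background and 1 lower. The 5 endothelial markers went the other way, from 94.3 to 110 to 35.8 to 38.4, with 0 higher and 5 lower. Of 11 neuron markers 5 were higher and 3 lower. Background and series cannot be told apart. The trend with exon length, these shares and the marker sums differed between the same libraries, so they cannot be told apart from background or series.

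**Figure D5:**
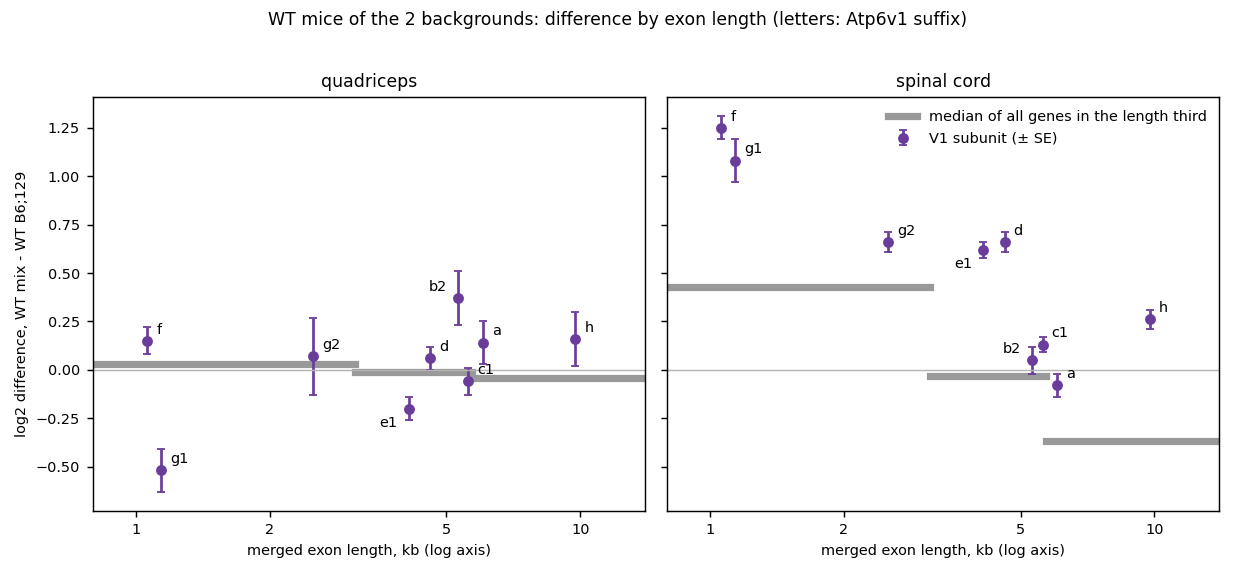
Log2 difference between WT mice of the mixed and the B6;129 background against merged exon length in kilobases (log axis), left quadriceps and right cord, with SE as error bars and grey bars for the median of all genes in each of 3 length classes. In cord Atp6v1f and Atp6v1g1 lie at 1.25 and 1.08 and Atp6v1a at -0.08, while the grey medians run from 0.43 to -0.37.

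Exon length also went with the quadriceps comparisons, to a smaller extent. The median for KO against WT was 0.09 in the shortest and -0.14 in the longest class on both backgrounds, and -0.12 and 0.17 with treatment. Atp6v1a and Atp6v1h, in the longest class, differed in the direction opposite to the median of that class. Centred by exon length, Atp6v1g1 was no longer called for KO on the mixed background (0.33, adjusted p = 0.0555) or with treatment (-0.21, adjusted p = 0.214), and Atp6v1c1 was called for KO on B6;129 (0.22, adjusted p = 0.0374).

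The KO effect was tested directly between muscle and cord in 1 fit of all 30 libraries. On B6;129 it was higher in quadriceps for 5 of 9 genes, where 12.2% of 13187 genes were called higher, and on the mixed background for 7 of 9, where 13.6% were. For Atp6v1a the difference of effects was 1.05 ± 0.12 (adjusted p = 9.89e-07) and 1.14 ± 0.12 (adjusted p = 2.26e-07). For Atp6v1h it was 0.58 ± 0.15 (adjusted p = 0.00464) and 0.69 ± 0.15 (adjusted p = 0.000787). The treatment effect was lower in quadriceps for 6 of 9 genes, where 14.0% of genes were called lower, with -1.00 ± 0.12 for Atp6v1a (adjusted p = 1.16e-06) and -0.91 ± 0.15 for Atp6v1h (adjusted p = 3.95e-05). For Atp6v1b2 all 3 differences between tissues, 0.11 ± 0.16, 0.05 ± 0.16 and -0.11 ± 0.16, were not called, and without WT quadriceps mouse 4 the second was called (0.27, adjusted p = 0.0479). Atp6v1d on B6;129 (0.21 ± 0.07, adjusted p = 0.0387) was not called with the animal as a fixed block (adjusted p = 0.0538), and Atp6v1g2 on the mixed background (0.58 ± 0.19, adjusted p = 0.0248) was not called without any 1 of 5 libraries (adjusted p = 0.0503 to 0.0815), namely WT mouse 1 and KO mice 7 and 8 in quadriceps and WT mouse 4 and KO mouse 6 in cord. The call of Atp6v1d on B6;129 was likewise lost without any 1 of 8 of the 12 libraries (adjusted p = 0.0592 to 0.118), the exceptions being KO mouse 1 and WT mice 5 and 6 in quadriceps and KO mouse 3 in cord.

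Other genes of the pump and its partners changed in quadriceps too. Of 11 V0 and accessory subunits tested, 8 were higher and 1 lower in KO on B6;129, 5 higher and 0 lower on the mixed background, and 2 higher and 5 lower with treatment. Atp6ap2, the accessory subunit known as the prorenin receptor, rose by 1.14 ± 0.13 and 0.85 ± 0.13 and fell by 1.18 ± 0.13. Atp6v0d2, a V0 isoform known from osteoclasts and macrophages, rose by 1.77 ± 0.22 and 1.24 ± 0.22 and fell by 1.55 ± 0.22. Of 6 Ragulator genes 2 and 4 were higher in KO and 4 lower with treatment, among them Lamtor1 (0.32 ± 0.09, 0.36 ± 0.09 and -0.33 ± 0.09). Of the 3 MiT/TFE factor genes tested, the family of TFEB, Mitf was lower in KO on both backgrounds (-0.44 ± 0.11 and -0.60 ± 0.11) and Tfeb on the mixed one (-0.29 ± 0.11), and both were higher with treatment (0.33 ± 0.11 and 0.47 ± 0.11).

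Of 12 genes for assembly and regulation of the pump, 1 was higher and 2 lower in KO on B6;129, 3 higher and 2 lower on the mixed background, and 3 higher and 3 lower with treatment. Vma21, a chaperone of V0 assembly, rose by 0.22 ± 0.07 and 0.31 ± 0.07 and fell by 0.39 ± 0.07. Dmxl1, a part of the complex that rejoins V1 and V0, fell by 0.41 ± 0.08 and 0.55 ± 0.08 and rose by 0.48 ± 0.08. None of the V1 isoforms Atp6v1b1, Atp6v1c2, Atp6v1e2 and Atp6v1g3 was among the genes tested in either tissue. In cord, of 10 V0 and accessory subunits tested, 1 was higher and 0 lower in KO on B6;129, and 3 higher and 1 lower on the mixed background. Of 6 Ragulator genes 0 were called on B6;129, and 0 were higher and 1 lower on the mixed background. Tcirg1, the V0 a3 subunit of osteoclasts and macrophages, was higher in KO cord on both backgrounds (0.42 ± 0.08, adjusted p = 0.0115, and 0.86 ± 0.08, adjusted p = 2.19e-05). The macrophage and microglia markers in cord summed to 198 to 203 in WT and 434 to 451 in KO on B6;129, and to 203 to 234 and 423 to 466 on the mixed background. Their part in the V1 values of cord was not tested.

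How far the V1 genes varied together was described by Pearson r between each gene and the mean of the other 8 over the 15 libraries of a tissue, which share groups and depth. In quadriceps r was 0.94 for Atp6v1h, 0.93 for Atp6v1a and Atp6v1d, 0.92 for Atp6v1f, 0.85 for Atp6v1c1, 0.81 for Atp6v1e1 and 0.74 for Atp6v1g2, against 0.44 for Atp6v1g1 and 0.21 for Atp6v1b2. In cord, where background separates the libraries, it ran from 0.92 for Atp6v1d to -0.42 for Atp6v1a. Outside the V1 genes, the quadriceps genes most like their mean were Arpp19 (r = 0.980), Slc25a48 (0.978), Gpx4 (0.976), Ndufa2 (0.975) and Nudt8 (0.967) of 14104 genes over 15 libraries. Uqcc2, Snrpe, S100a1, Pomp and Atpif1 followed, at 0.963 to 0.966. In cord they were Tmem183a (0.976), Lrrc49 (0.971), Cdc123 (0.966), Ndufaf5 (0.965) and Asb16 (0.964) of 15829 genes.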

How the data were processed

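Normalized counts of polyA RNA from 30 single-end libraries were analysed. The deposited signal is the authors' linear normalized count. Testing its steps showed each value to be the read number with 0.5 added, over a library size factor: 100% of values came out whole within 0.001. The submitters' processing notes name cutadapt, RSEM, limma, edgeR and GRCm38, with no versions. Use of strand in counting is not given in the sources used here.

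The main test was limma 3.58.1 (R 4.3.3) with an intensity trend on log2(signal + 0.5), which understates changes of low genes. Genes were kept where 3 or more of the tissue's libraries reached a signal of 1, leaving 14113 in quadriceps, 15838 in cord and 13187 in both. All 5 groups of a tissue entered 1 model, and comparisons between tissues used all 30 libraries. P-values were adjusted by Benjamini-Hochberg over all genes of a fit, and genes under 0.05 count as called. Each library is a different animal within a tissue. Alternatives were edgeR 4.0.16 and DESeq2 1.42.0 on the recovered reads, pseudocount 2, a signal of at least 4 or no filter, quantile normalization, only the compared groups, each library left out, and the animal as a block. On the recovered reads edgeR called 5059, 5411 and 5516 genes for KO on B6;129, KO on the mixed background and treatment in quadriceps, against 5046, 5562 and 5736 by limma. Both tissues came from the same animals, and the deviations of an animal's 2 libraries from their group means correlated at 0.109 to 0.354, above 0.1 in 15 of 15 animals. For treated animals this rests on joining cord columns by the animal number of the title. The scripts were tested on simulated data.

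Members and gene lists were chosen with earlier results of these data known. The comparison of WT mice between backgrounds and the centring by exon length (10 bins) were added after seeing the data. The stress genes Atf3, Ankrd1 and Hspa1a were likewise chosen after their values were seen. All 9 members are named in the comparisons, with Gaa as a check of the labels, up to 4 called genes per list by smallest adjusted p, and the 10 genes most like the mean member profile. Exon lengths come from GENCODE vM21 (GRCm38), start regions from RefSeq.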

Additional observations from a re-analysis of the deposited data

Results flagged for a closer look

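The KO effect and the treatment effect were compared between quadriceps and cord within 1 limma fit, and the effects named here differed between the tissues at an adjusted p under 0.05. Values are log2 differences of quadriceps effect minus cord effect. For KO on B6;129 they were 1.05 for Atp6v1a, 0.80 for Atp6v1g2, 0.58 for Atp6v1h, 0.35 for Atp6v1f and 0.21 for Atp6v1d. For KO on the mixed background they were 1.14 for Atp6v1a, 0.69 for Atp6v1h, 0.58 for Atp6v1g2, 0.47 for Atp6v1f, 0.40 for Atp6v1d, 0.34 for Atp6v1c1 and 0.26 for Atp6v1e1. For treatment they were -1.00 for Atp6v1a, -0.91 for Atp6v1h, -0.61 for Atp6v1g1, -0.58 for Atp6v1f, -0.31 for Atp6v1d and -0.28 for Atp6v1e1. The KO differences of both backgrounds come from different animals, while those of KO on the mixed background and of treatment share the untreated KO libraries. Centred by exon length, Atp6v1g1 was no longer called for treatment (-0.35, adjusted p = 0.127). DESeq2 also called Atp6v1g2 for treatment (-0.53, adjusted p = 0.0147).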

How the results depend on the processing

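Over the 9 genes and 16 comparisons, called differences kept their direction and call, and uncalled ones stayed uncalled within the replicate SD, for 144 of 144 differences with pseudocount 2 and with a signal of at least 4, 143 without a filter, 142 each with edgeR and DESeq2, 135 with only the compared groups, 128 with centring by exon length and 119 after quantile normalization. Between WT cords the direction turned after quantile normalization for Atp6v1b2 (-0.21) and Atp6v1c1 (-0.14), and with length centring for Atp6v1a (0.16). Leaving out single libraries kept 1088 of 1134. With the animal as a replicate block, the estimated correlation changed 0 of 36 calls and the fixed block 1, Atp6v1d between tissues (0.21, adjusted p = 0.0538). The cause of these shifts was not tested.

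V1 genes called moved by over 1.5 times in 3 comparisons. They were 2 (quantile) and 0 (edgeR) against 1 between WT quadriceps, 3 (quantile) and 1 (only compared groups) against 6 for treated KO against WT cord, and 0 (only compared groups) against 1 for KO cord on the mixed background. Over all genes, treatment in cord gave 3 calls (pseudocount 2), 4 (signal of at least 4), 2 (edgeR), 155 (DESeq2) and 4 (length centring) against 0. DESeq2 gave 1028 against 421 for treated KO against WT quadriceps, 786 against 363 between WT quadriceps, 386 against 183 for KO cord on B6;129, 203 against 40 for the difference of KO effects in quadriceps and 278 against 83 in cord; edgeR gave 10 for the former. With only the compared groups these were 17, 156, 297 and, for cord KO effects, 146, and KO and treated KO against WT cord of the mixed background gave 570 and 531 against 2061 and 2654.

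Leaving out single libraries, V1 genes called ranged from 4 to 6 for KO on B6;129, 6 to 8 for KO on the mixed background and 6 to 8 for treatment in quadriceps, 0 to 1 for the difference of KO effects and between WT quadriceps, and 0 to 0 for treated KO against WT. In cord they were 0 to 1 for KO on the mixed background, 2 to 6 for treated KO against WT, 6 to 7 between WT mice and 0 to 0 elsewhere. Between tissues they were 4 to 5, 6 to 8 and 6 to 7 for KO on B6;129, KO on the mixed background and treatment, and 8 to 8 for the WT level. All genes called ranged in quadriceps from 3878 to 4373 and 4246 to 5275 for KO on B6;129 and the mixed background, 11 to 116 for their difference, 4751 to 5291 for treatment, 124 to 448 for treated KO against WT and 187 to 596 between WT mice. In cord the ranges in that order were 101 to 145, 918 to 1892, 43 to 95, 0 to 35, 1462 to 2598 and 9862 to 10172. Between tissues they were 2746 to 3289, 3609 to 4303 and 3890 to 4445, and 10413 to 10484 for the WT level.

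Atp6v1g2 in quadriceps rests on 33 to 135 reads a library, and each group on 3 libraries.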
